A study of Mus musculus with 7 samples.

Results

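The genes described here are 39 interferon-stimulated genes, measured in the livers of mice that lack C3ar1, a G protein-coupled receptor that binds the complement fragment C3a, and in the livers of wild-type littermates. They were chosen by symbol from a list, with earlier results of these data known. Of them, 37, read by 42 probes, were on the array among 16462 named genes and 23574 probes. Ifi44 and Ddx58 had no probe under the annotation used. By the kind of interferon best known to induce them, 29 of the 37 were taken as type I-induced genes, 5 as GTPases induced by interferon gamma and 3, Irf1, Irf8 and Ifi30, as other gamma-induced genes, although many genes of both kinds answer to either interferon. RNA of 3 C3ar1 (-/-) livers, numbered 2 to 4, and of 4 wild-type livers, numbered 1 to 4, was hybridised on 2-colour arrays, 1 mouse to an array, against 1 common reference, RNA pooled from 6 wild-type livers. All mice were on a chow diet, and their age, sex and strain and the deleted part of C3ar1 are not given in the sources used here.

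Interferons are secreted by infected or activated cells. Type I interferons bind a receptor of Ifnar1 and Ifnar2 and activate a complex that holds Stat2 and Irf9 and binds the interferon-stimulated response element (ISRE) of its target genes. Interferon gamma, a product of T and natural killer cells, binds a receptor of Ifngr1 and Ifngr2 and acts at the gamma-activated site (GAS), and it also induces Irf1, a factor that binds ISRE-type sequence. In the liver, hepatocytes, Kupffer cells and endothelial cells all carry these receptors, and low interferon signalling keeps many of the targets at a basal level without infection.

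Values are log10 ratios, most likely positive where the mouse's liver gave more signal than the pool, and differences are knockout minus wild type. Neither the direction nor the base is given in the sources used here, so base 10 was assumed for every fold, and with the opposite direction each sign below would change. In bulk liver, fewer cells of a type and less RNA per cell cannot be told apart. The deposited log ratios carry no signal level, so whether a probe read above background, and whether liver markers were abundant, could not be checked. The spread over probes was widest on the array of knockout liver 2, with an SD of 0.0975 against 0.0466 to 0.0676 on the others. The probe of C3ar1 differed by 0.0329 ± 0.0232 (SE, adjusted p = 0.884), so it checks neither the labels nor the direction, and A2ml1 was the only row of 22212 to pass the test.

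The promoters of 4 of the listed genes are shown first, with the ISRE core, the part of the response element that was searched for. Ifit1 and Ifit3 are 2 of the 4 type I-induced genes that were lower in the knockouts at an unadjusted p under 0.05. Ifih1 and Oasl1 were also at that level, and a match was found in the promoter of Ifih1 but not of Oasl1. Gbp2 and Igtp stand for the GTPases. Each line gives the 250 bases before the start of the gene, 5′ to 3′ on the gene's strand (RefSeq, GRCm38.p6), with every match to the ISRE core in capitals.
Ifit1, chr19:34640639-34640888, plus strand: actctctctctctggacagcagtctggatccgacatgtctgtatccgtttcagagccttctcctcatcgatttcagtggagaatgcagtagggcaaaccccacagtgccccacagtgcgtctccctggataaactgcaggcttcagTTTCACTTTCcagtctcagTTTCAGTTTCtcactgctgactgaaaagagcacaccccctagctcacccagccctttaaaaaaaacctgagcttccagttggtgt
Ifit3, chr19:34583279-34583528, plus strand: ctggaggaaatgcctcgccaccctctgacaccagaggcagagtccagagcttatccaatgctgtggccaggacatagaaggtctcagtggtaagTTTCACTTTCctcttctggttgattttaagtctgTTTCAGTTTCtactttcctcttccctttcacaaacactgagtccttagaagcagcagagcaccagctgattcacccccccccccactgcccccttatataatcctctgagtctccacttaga
Gbp2, chr3:142620413-142620662, plus strand: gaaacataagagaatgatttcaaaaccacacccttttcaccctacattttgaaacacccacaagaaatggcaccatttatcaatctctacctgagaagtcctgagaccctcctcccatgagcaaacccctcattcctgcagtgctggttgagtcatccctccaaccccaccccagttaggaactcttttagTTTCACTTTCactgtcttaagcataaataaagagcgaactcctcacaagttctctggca
Igtp, chr11:58199306-58199555, plus strand: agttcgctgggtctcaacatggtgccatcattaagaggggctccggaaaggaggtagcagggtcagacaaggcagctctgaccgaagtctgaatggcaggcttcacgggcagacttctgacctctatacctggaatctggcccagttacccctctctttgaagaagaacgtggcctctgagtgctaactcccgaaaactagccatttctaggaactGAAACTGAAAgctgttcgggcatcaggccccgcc

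The ISRE core was searched as GAAANNGAAA on both strands, in windows of 250 bases before to 50 bases after each start. Ifit1 and Ifit3 held 2 matches each, all on the minus strand, and the match nearest the start ended 75 and 112 bases before it. Gbp2 held 1 match on the minus strand, 49 bases before the start, and Igtp held 1 on the plus strand, 24 bases before the start. The window of Igtp also held 1 match to the GAS core, which is not in capitals. Of the 39 listed genes, 30 were matched to 40 promoters by symbol. The core was found in 17 of these 40 promoters, or 42.5%, and in 3.44% of all 32851 promoters in the table. The GAS core, searched as TTCNNNGAA, which reads the same on both strands, was found in 25% of these promoters and in 8.30% of all, and in 1 promoter the 2 motifs overlapped. A match is a description of the sequence, not a sign that the site was bound.

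The main question was whether the interferon-stimulated genes differed between knockout and wild-type livers. None of the 37 passed the test over all 22212 rows, of which 0.0045% passed in all, 0.0045% toward lower and 0% toward higher values in the knockouts, and the adjusted p values of the listed genes ran from 0.884 to 0.996. Lower means in the knockouts were found for 17 of the 37, or 45.9%, against 42.8% of all rows, and higher means for 20. The median difference of the 37 was 0.00593 on the log10 scale, beside 0.00558 over all rows. At an unadjusted p under 0.05 stood 5 genes, 13.5% of the list against 4.55% of all rows. Of these, Ifih1, Ifit3, Oasl1 and Ifit1 were lower in the knockouts, which is 10.8% of the list against 2.66% of all rows. Oas2 was higher, which is 2.70% against 1.89%. This count of 5 was 1 after quantile or scale normalization, where 3.57% and 3.68% of all rows were at that level, and also 1 with the replicate block, where 2.35% were. It was 2 in the ordinary linear model and without knockout liver 3, beside 4.08% and 6.79% of all rows. Without wild-type liver 1, 3 or 4 the count was 3, beside 2.85%, 4.84% and 4.94% of all rows in that order. With array weights the count was 7, beside 5.96% of all rows. Since the list was chosen with earlier results of these data known, these counts and shares are a description.

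**Figure D1:**
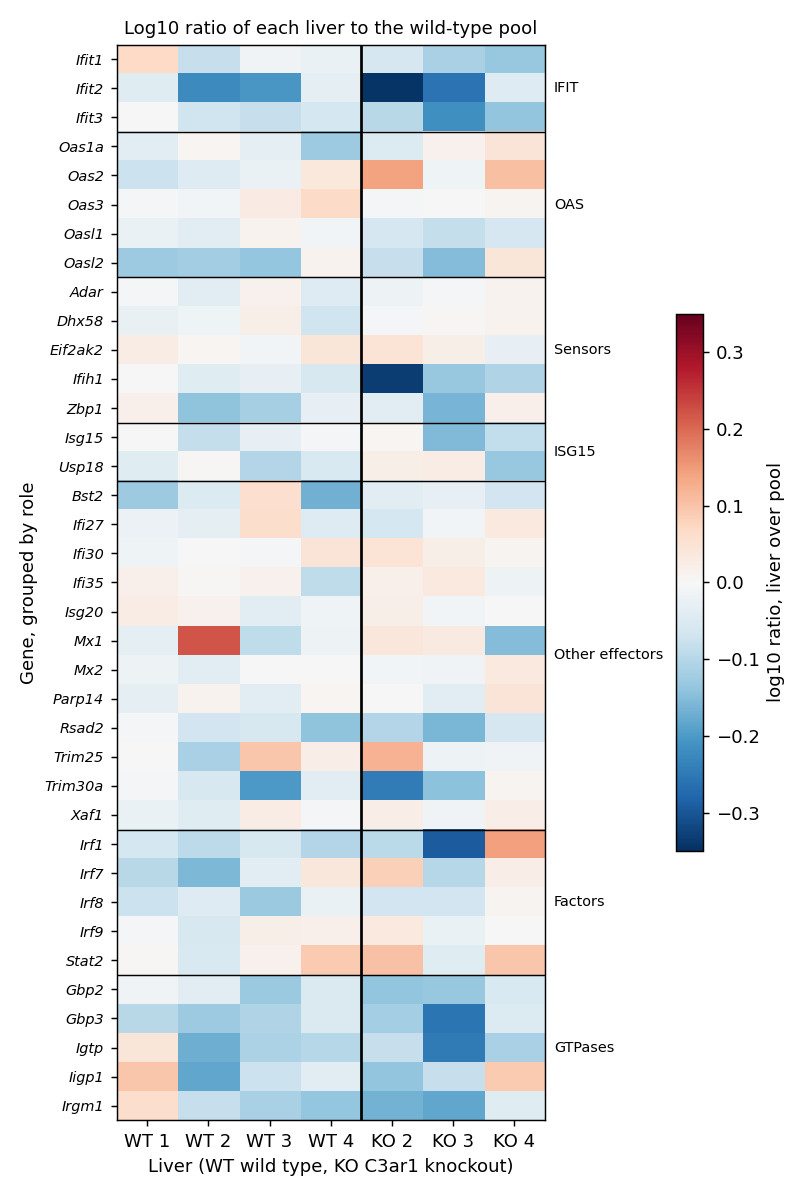
Log10 ratio of each of the 37 interferon-stimulated genes (rows, grouped by role) in each liver (columns, 4 wild types then 3 knockouts) against the wild-type pool, on a colour scale from blue, below the pool, to red, above it. The IFIT genes and the GTPases are mostly blue in both genotypes, and the deepest blue is Ifit2 in knockout liver 2, at -0.343.

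The 3 IFIT genes, whose proteins bind foreign RNA ends and block their translation, each had a lower mean in the knockouts. Ifit3 gave 0.0019, -0.06855, -0.08105 and -0.06035 in wild-type livers 1 to 4 and -0.09645, -0.2141 and -0.13695 in knockout livers 2 to 4. All 3 knockouts lay below all 4 wild types, and liver 3 was the lowest. Such a gap toward lower values was found in 3 of the 37 genes, or 8.11%, against 2.56% of all rows, and toward higher values in 0 against 2.71%, which makes 5.27% of all rows in either direction. The difference of Ifit3 was -0.0972 ± 0.0329 (SE), a level 1.25-fold lower in the knockouts with 1.05 to 1.49 as its 95% interval (limma, adjusted p = 0.884). Both probes of Ifit3 gave it, at -0.108 and -0.0864.

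Ifit1 gave 0.0692, -0.0802, -0.0126 and -0.0227 in wild-type livers 1 to 4 and -0.0578, -0.1135 and -0.1339 in knockout livers 2 to 4. Wild-type liver 2 lay below knockout liver 2, so the groups overlapped by 1 liver. The difference was -0.0902 ± 0.0364 (SE), or 1.23-fold lower (interval 1.01 to 1.496, limma, adjusted p = 0.884). Ifit2 spread more widely, with -0.0433, -0.222, -0.2036 and -0.0351 in wild-type livers 1 to 4 and -0.3425, -0.2574 and -0.0456 in knockout livers 2 to 4. Livers of both genotypes were found at both ends of its range, and the difference of -0.0892 ± 0.0783 (SE) was close to its own error. The 3 IFIT genes lie on chromosome 19 and are related in sequence, and since probe sequences were not used here, shared hybridisation was not tested.

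Among the sensors of foreign nucleic acid, Ifih1, which encodes the double-stranded RNA sensor MDA5, had the largest difference of the 37 genes. It gave 0.002, -0.0429, -0.0295 and -0.0549 in wild-type livers 1 to 4 and -0.333, -0.1313 and -0.1044 in knockout livers 2 to 4. All knockouts lay below all wild types, and liver 2, whose array had the widest spread, was far below the others. The difference was -0.158 ± 0.0524 (SE), or 1.44-fold lower (interval 1.09 to 1.91, limma, adjusted p = 0.884), and without knockout liver 2 it was -0.0865, closer to 0 by more than 1.5 times. The other 4 sensors and RNA-binding enzymes showed no such gap. Dhx58, a regulator of RNA sensing, differed by 0.0250, Eif2ak2, the kinase PKR that halts translation, by -0.00339, Zbp1, a sensor of Z-form nucleic acid, by 0.00593, and Adar, the editing enzyme that marks self RNA, by 0.0139.

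Oligoadenylate synthetases with enzyme activity make the messenger that activates the nuclease RNase L. The 5 genes of this family, which includes synthetase-like proteins, did not move together. Oasl1, a synthetase-like protein that in mice restrains translation of Irf7, gave -0.0243, -0.0367, 0.0116 and -0.0106 in wild-type livers 1 to 4 and -0.0599, -0.0834 and -0.058 in knockout livers 2 to 4. The groups did not overlap, and the difference was -0.0521 ± 0.0187 (SE), or 1.13-fold lower (interval 1.02 to 1.25, limma, adjusted p = 0.884). Oas2 pointed the other way, at -0.0741, -0.0461, -0.0239 and 0.0377 in wild-type livers 1 to 4 and 0.1415, -0.0151 and 0.1057 in knockout livers 2 to 4. Knockout livers 2 and 4 lay above all wild types and liver 3 among them, for a difference of 0.104 ± 0.0421 (SE), or 1.27-fold higher (interval 1.01 to 1.59, limma, adjusted p = 0.884). Of the others, Oas1a differed by 0.0525, Oas3 by -0.01796 and Oasl2, a synthetase-like protein, by 0.0296. All 5 genes lie on chromosome 5.

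**Figure D2:**
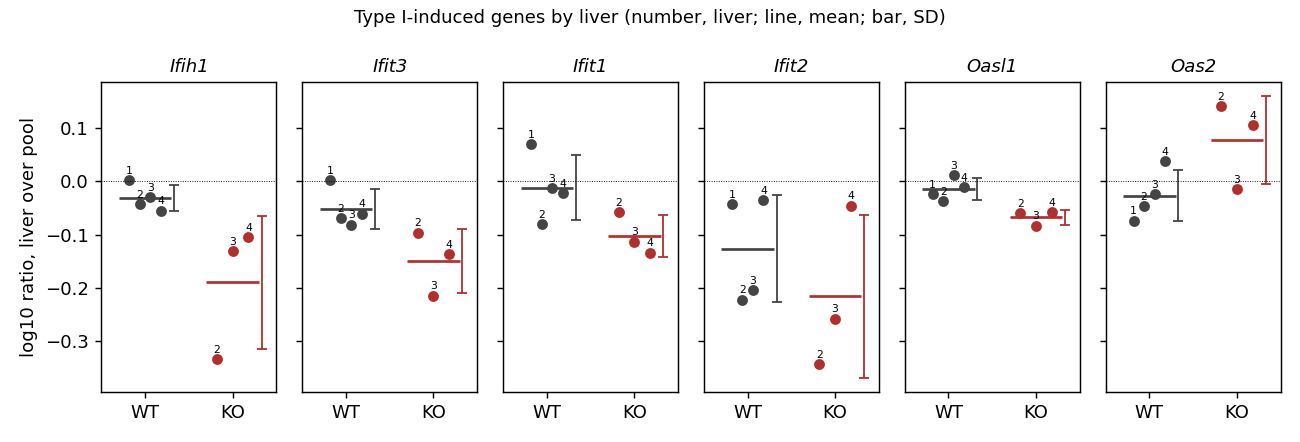
Log10 ratio to the pool in each liver (points, numbered by liver) for 6 type I-induced genes in wild-type (WT) and C3ar1 knockout (KO) mice, with the mean as a line and the SD as a bar. The knockouts lie below the wild types without overlap in Ifih1, Ifit3 and Oasl1, overlap them in Ifit1 and Ifit2, and lie higher on average in Oas2.

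The ISG15 system tags proteins with the ubiquitin-like Isg15, and Usp18 both removes the tag and damps the type I receptor. Isg15 gave -0.00235, -0.0845, -0.02765 and -0.00405 in wild-type livers 1 to 4 and 0.0074, -0.1541 and -0.0873 in knockout livers 2 to 4. Knockout liver 2 was the highest of all 7 and livers 3 and 4 the lowest, and the difference was -0.0484 ± 0.0396 (SE). Usp18 is the only listed gene on chromosome 6, where C3ar1 lies, with 38 annotated genes between them, 18 of them protein-coding. It gave -0.0436, 0.0044, -0.1029 and -0.0533 in wild-type livers 1 to 4 and 0.0206, 0.0251 and -0.1327 in knockout livers 2 to 4. Knockout liver 4 was the lowest and livers 2 and 3 the highest of all 7, and the difference was 0.0199 ± 0.0436 (SE), with a 95% interval from -0.0816 to 0.121.

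The remaining 12 antiviral effectors ranged from -0.0510 to 0.0291 in their differences, 4 of them below 0. Rsad2, the radical enzyme viperin, had the smallest p, with -0.0064, -0.0667, -0.0559 and -0.142 in wild-type livers 1 to 4 and -0.1023, -0.1606 and -0.0592 in knockout livers 2 to 4. The groups overlapped widely, and the difference was -0.0396 ± 0.0366 (SE). The other 3 with lower means were Trim30a, a regulator of inflammatory signalling, at -0.0510, Mx1, a dynamin-like GTPase that traps viral cores, at -0.0475, and Ifi27 at -0.00285. Mx1 was 2.35-fold higher in wild-type liver 2 than in knockout liver 4, with 0.219 and -0.1528. Means were higher in the knockouts for Trim25, the ubiquitin ligase of RNA sensing (0.0291), Bst2, which tethers budding virus (0.0269), Ifi35 (0.0248), Xaf1, a proapoptotic protein (0.0219), Ifi30, a lysosomal thiol reductase of antigen processing (0.0191), Mx2 (0.0181), Parp14, an ADP-ribosyltransferase (0.0157), and the exonuclease gene Isg20 (0.0049). The signs of Ifi27 and Isg20 turned after quantile and scale normalization.

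Of the 5 transcription factors, 4 had higher means in the knockouts and none stood apart from the wild types. Irf7, the factor that amplifies type I interferon production, gave -0.0975, -0.1569, -0.0392 and 0.0408 in wild-type livers 1 to 4 and 0.0829, -0.0993 and 0.0229 in knockout livers 2 to 4. Its highest value was in knockout liver 2 and its lowest in wild-type liver 2, the groups overlapped, and the difference was 0.0654 ± 0.0564 (SE). Stat2 and Irf9, which act in the type I complex, differed by 0.0386 and 0.0106, and Irf8, a factor of macrophages and dendritic cells, by 0.0277. Irf1 differed by -0.00242, a sign that turned after quantile and scale normalization, and had the widest range of the 37 measured genes, 2.72-fold between 0.1439 in knockout liver 4 and -0.2909 in knockout liver 3. The highest value of Irf8 was also in knockout liver 4, at 0.0096. In that liver the mean of 13 measured macrophage and Kupffer cell markers was 0.122, against -0.236 to -0.0595 in the other 6, while Irf8, Irf7 and Bst2 are themselves among the 8 measured markers of plasmacytoid dendritic cells, so that list was not set beside them. All 13 macrophage markers had higher means in the knockouts, beside 12697 of all 22212 rows, and 0 passed the test. Knockout liver 4 was the highest in 12 of the 13 and wild-type liver 3 the lowest in 11. The marker means of knockout livers 2 and 3, -0.105 and -0.154, lay within the range of the wild types. Endothelial markers had higher means in 10 of 12, and 4 of them, Stab1, Vwf, Egfl7 and Eng, were higher without overlap at an unadjusted p under 0.05, which is 33.3% of the list against 1.89% of all rows, with 0 called. The part of such cells in the values of Irf1 and Irf8 was not tested.

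The 5 GTPases induced by interferon gamma guard the cell against bacteria and parasites that live in vacuoles, and 4 of the 5 had lower means in the knockouts. Their median difference was -0.0509, against 0.0106 for the 29 type I-induced genes and 0.00558 for all rows. Igtp, a GTPase of the immunity-related family, gave 0.0421, -0.1718, -0.1111 and -0.0993 in wild-type livers 1 to 4 and -0.0795, -0.2483 and -0.1148 in knockout livers 2 to 4. Irgm1, which regulates the other members of that family, gave 0.0613, -0.081, -0.1137 and -0.1362 in wild-type livers 1 to 4 and -0.1644, -0.1826 and -0.0423 in knockout livers 2 to 4. In both genes wild-type liver 1 was the only value above the pool and knockout liver 3 was the lowest, while the other livers of the 2 genotypes were mixed. The differences were -0.0625 ± 0.0576 for Igtp and -0.0624 ± 0.0540 for Irgm1 (SE).

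Gbp2, a guanylate-binding protein that coats vacuoles, had the smallest p of the 5, with -0.01105, -0.03645, -0.12905 and -0.05115 in wild-type livers 1 to 4 and -0.13875, -0.1315 and -0.0531 in knockout livers 2 to 4. Wild-type liver 3 stood with knockout livers 2 and 3, and knockout liver 4 with the other wild types, for a difference of -0.0509 ± 0.0341 (SE, limma, adjusted p = 0.884). The 2 probes of Gbp2 disagreed in size, with differences of -0.0927 and -0.00906. Gbp3 differed by -0.0461, and its lowest value was -0.2543 in knockout liver 3. Iigp1, a GTPase recruited to parasite vacuoles, differed by 0.00713, with 0.097 in wild-type liver 1 and 0.0919 in knockout liver 4, and -0.1819 to -0.0376 in the other 5. The value of single livers set the size of the group difference. When wild-type liver 1 was left out, the median difference of the 5 GTPases became -0.0201, and when knockout liver 3 was left out it became -0.0121, with Gbp2, Igtp and Irgm1 below 0. It became -0.0789 without knockout liver 4, with all 5 below 0, -0.0322 after quantile normalization and -0.0929 with array weights. The difference between the medians of type I-induced genes and GTPases, 0.0615, became 0.0313, 0.0253 and 0.0848 when wild-type liver 1, knockout liver 3 or knockout liver 4, in that order, was left out.

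The range over the 7 livers had a median of 0.244 for the 5 GTPases and 0.158 for the 29 type I-induced genes, against 0.103 for all rows. Wild-type liver 1 was the highest in 4 of the 5 GTPases and knockout liver 3 the lowest in 3. Over all 22212 rows, wild-type liver 1 was the highest in 3180 and knockout liver 3 the lowest in 1458. The mean of the 5 was 0.0184 in wild-type liver 1, -0.119, -0.107 and -0.0750 in wild-type livers 2, 3 and 4, and -0.128, -0.180 and -0.0334 in knockout livers 2, 3 and 4. Thus 1 liver of each genotype stood near the pool and the others below it. The mean of 13 measured markers of T and natural killer cells, the main sources of interferon gamma, was -0.00799 in wild-type liver 1, -0.0135, -0.00846 and 0.0220 in wild-type livers 2, 3 and 4, and 0.00858, -0.0113 and 0.0151 in knockout livers 2, 3 and 4. These markers pointed different ways. Klrb1c, a natural killer cell receptor, differed by -0.157, and the T cell genes Cd4 and Cd3e by 0.110 and 0.0641, each without overlap at an unadjusted p under 0.05 and none called. The 1 lower gene is 7.69% of the list against 2.66% of all rows, and the 2 higher ones are 15.4% against 1.89%. The related genes Cd3d and Cd3g differed by 0.000817 and 0.000717. Klrb1c and Cd4 lie on chromosome 6, as C3ar1 and A2ml1 do, and the part of that location in their values was not tested. The part of T and natural killer cells in the values of the GTPases was not tested. In the 29 type I-induced genes the highest value was spread over all 7 livers, from 1 gene in wild-type liver 2 to 7 genes in knockout liver 2. Knockout liver 2 was the highest in 6466 of all 22212 rows. The lowest value of these genes was in wild-type liver 2 for 7 and in knockout liver 3 for 6. Their mean was lowest in knockout liver 3, at -0.0608.

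**Figure D3:**
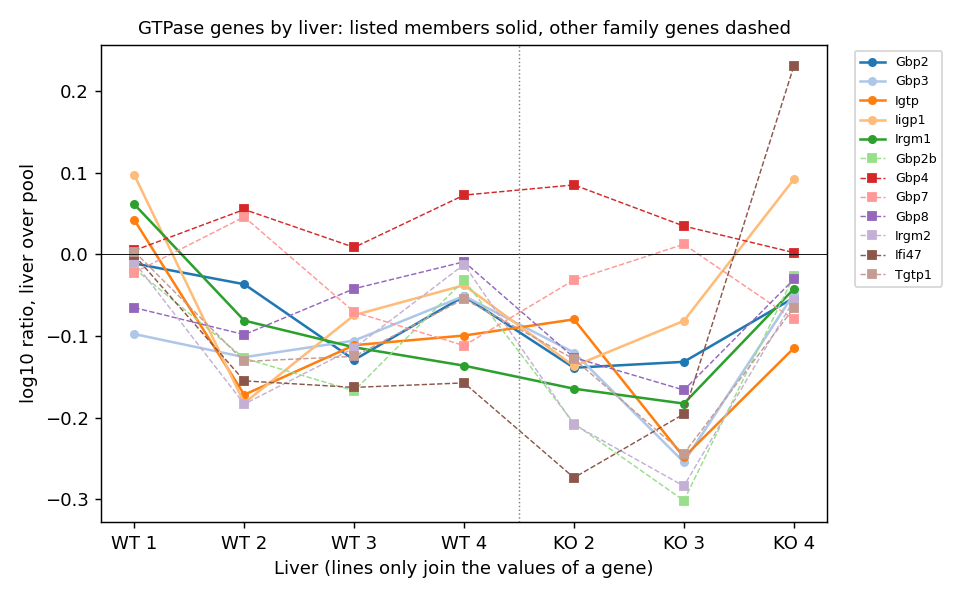
Log10 ratio to the pool in each liver for the 5 listed GTPase genes (solid lines, circles) and 7 other GTPase genes of the same families (dashed lines, squares). Most lines are near or above 0 in wild-type liver 1, below 0 in wild-type livers 2 and 3 and lowest in knockout livers 2 or 3, while Gbp4 stays above 0 in every liver.

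Other genes under interferon gamma, which are not on the list, were read beside these. Of 7 further GTPases measured, 4 had lower means in the knockouts, with a median difference of -0.0541, and 0 passed the test. Irgm2, a relative of Irgm1, gave -0.0095, -0.1832, -0.1146 and -0.0123 in wild-type livers 1 to 4 and -0.2084, -0.2836 and -0.0562 in knockout livers 2 to 4, with wild-type liver 1 the highest and knockout liver 3 the lowest, as in Igtp and Irgm1. The same 2 livers were the extremes in Tgtp1 and Gbp2b, over 1.77-fold and 1.92-fold. Gbp8, another guanylate-binding protein, differed by -0.0541. Gbp4 was above the pool in all 7 livers. Ifi47 differed by 0.0395 and was highest in knockout liver 4, at 0.2304. Of 15 other gamma-induced genes, 9 had lower means, 2 of them at an unadjusted p under 0.05, which is 13.3% of the list against 2.66% of all rows. These were Psmb9, an immunoproteasome subunit, at -0.0921, and Cxcl10, a chemokine that draws T cells, at -0.241. Tap2, a peptide transporter subunit, differed by 0.0490. Cxcl10 ran from 0.0701 in wild-type liver 1 to -0.4861 in knockout liver 3, a 3.60-fold range, and the chemokine gene Cxcl9 ran from 0.062 in wild-type liver 1 to -0.2877 in knockout liver 2.

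The signalling pathway itself was read from lists of ligands, receptors and inducers. Of 11 interferon genes, 0 were at an unadjusted p under 0.05, and their differences lay between -0.0196 and 0.02797, the latter that of Ifnab, which had the smallest p. Ifng gave 0.0014, -0.0981, -0.0556 and -0.0701 in wild-type livers 1 to 4 and -0.0446, -0.1424 and -0.0107 in knockout livers 2 to 4, highest in wild-type liver 1 and lowest in knockout liver 3, the same extremes as in Igtp and Irgm1. Its difference was -0.0103 ± 0.0366 (SE). Of 15 receptor and signalling genes, 10 had higher means in the knockouts and 1 was at an unadjusted p under 0.05, Ifnar2, a chain of the type I receptor, at 0.1101. The gamma receptor gene Ifngr2 differed by 0.117. Of 14 genes that lead to interferon production, 9 had higher means and 1 was at that level, Ikbke, a kinase of interferon regulatory factors, at 0.119, while the RNA receptor gene Tlr3 differed by -0.135. These single genes are 6.67% of the receptor list and 7.14% of the induction list, against 1.89% of all rows in that direction. In all these lists 0 genes passed the test over all rows.

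Among 43 other measured type I-induced genes, 19 had lower and 24 higher means in the knockouts, with a median difference of 0.0050 and 0 called. At an unadjusted p under 0.05 were 4 lower genes, Cd274, Tdrd7, Samd9l and Trim34a, each without overlap, which is 9.30% of the list against 2.66% of all rows. The 3 higher ones, Ifi27l2a, Ifitm3 and Ifitm1, are 6.98% against 1.89%. Ifi27l2a gave -0.1618, -0.2298, -0.1781 and -0.0519 in wild-type livers 1 to 4 and -0.0097, -0.077 and 0.1503 in knockout livers 2 to 4. Only wild-type liver 4 reached into the range of the knockouts, and the difference was 0.177. Samd9l, an antiviral translation inhibitor, differed by -0.0926, and Ifitm3, which blocks viral entry, by 0.0797. Samd9l lies on chromosome 6, as C3ar1 does, and the part of that location in its values was not tested. These further genes thus pointed both ways, as the listed ones did.

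Each genotype was also set against the pool. The mean of the wild types was below the pool in 31 of the 37 listed genes, or 83.8%, against 39.9% of all rows, and that of the knockouts in 22, or 59.5%, against 40.2%. No listed gene passed the test against the pool, while 0% of all rows passed it in the wild types and 0.0315% in the knockouts. At an unadjusted p under 0.05, 7 listed genes were below the pool in the wild types, Ifit2, Ifit3, Irf8, Oasl2, Gbp2, Gbp3 and Rsad2, which is 18.9% against 1.58% of all rows, and 0 were above it against 0.743%. In the knockouts 12 were below, or 32.4% against 8.03%, and 1, Oas2, was above, or 2.70% against 9.68%. All 5 GTPases and all 3 IFIT genes were below the pool on average in both genotypes. The pool is a single sample shared by all 7 arrays, so its own spread does not enter these counts, and the 2 genotypes are not independent evidence of an offset.

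**Figure D4:**
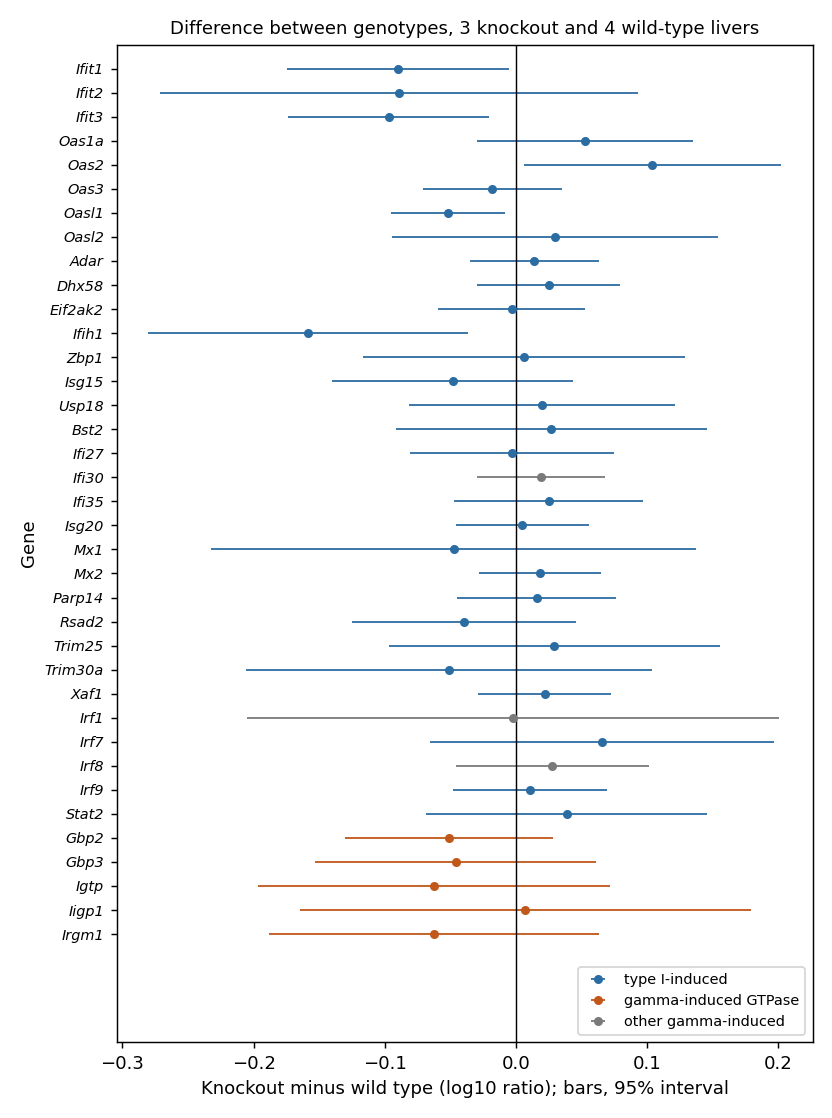
Difference of each of the 37 genes between the genotypes (knockout minus wild type, log10 ratio) with its 95% interval, in the order of the roles and coloured by the kind of interferon. The intervals of Ifih1, Ifit3, Oasl1, Ifit1 and Oas2 leave out 0 before adjustment, and those of all 5 GTPases include it.

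The listed genes with and without an ISRE core in their promoter were set side by side as a description, after the values had been seen. Of the 15 measured genes with a core, 12 had lower means in the knockouts, with a median difference of -0.0484 and a range from -0.158 for Ifih1 to 0.0525 for Oas1a. Of the 13 without one, 3 had lower means, Ifit2, Oasl1 and Irf1, with a median of 0.0191. The other 9 measured genes, Oas2, Usp18, Dhx58, Mx1, Mx2, Iigp1, Ifi27, Parp14 and Zbp1, were not matched to a promoter and are in neither count. Of these 9, only Mx1 and Ifi27 had lower means in the knockouts. Over all other genes with a promoter in the table, 44.1% of 506 genes with the core had lower means and 43.4% of 12555 without it. The difference between these promoter classes was not tested, and the genes with a core share neighbours, such as Ifit1 with Ifit3 and Gbp2 with Gbp3. They also include Igtp and Irgm1, so the split in part repeats the GTPase and IFIT values given above.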

How the data were processed

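Liver RNA of 3 knockout and 4 wild-type mice was measured on 2-colour arrays against 1 pool. The authors deposited 1 log ratio per probe and array, read here as log10 ratios from their size. Per the labels' protocols, RNA was amplified and labelled by an aminoallyl method, and the design text mentions a dye swap. How the swap enters each column, the background correction and the normalization are not stated in the labels. The table had 0 unused columns and 0 missing values, and no pair of arrays had more than 0.119% identical values. The number of arrays limits the precision.

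Probes were named from the platform annotation, updated to GRCm38.p6 symbols. Probes of a gene were averaged and the other probes kept singly, giving 22212 rows. Rows were fitted in R 4.3.3 by lmFit and moderated by eBayes of limma 3.58.1 (knockout minus wild type, two-sided, Benjamini-Hochberg over all rows, threshold 0.05), and each group's mean was tested against 0 in the same model. Each array is 1 mouse, so p-values measure the spread between these mice. On simulated data of 22212 rows for this comparison, changes of 0.1, 0.2, 0.4 and 0.8 (log10) were recovered in 10%, 78%, 98% and 100%, with 6 false calls. The listed genes varied more than most rows, with a median range over the livers of 0.1615 against 0.103. These recovery shares therefore need not hold for them.

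Listed genes and gene lists were chosen with earlier results of these data known. Values per mouse were printed for genes at an unadjusted p under 0.05, for the gene of smallest p of each role and for Usp18. Of each other list, up to 4 genes of smallest p were named, and Ifng as one of the genes most alike. Ifitm3, Trim34a, Ifitm1, Gbp4, Ifi47, Cd3d and Cd3g were added after their values were seen. The same holds for the values per mouse of Ifit2, Igtp, Irgm1 and genes of the other lists. Alternatives were 3 other scalings, a filter on variation, single probes, robust, ordinary and weighted fits, a replicate block and each mouse left out.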

Additional observations from a re-analysis of the deposited data

Results flagged for a closer look

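In 2 of the 37 genes 1 wild-type liver lay far from the other 3, by a gap of 0.896 of the group's whole range in Oasl2 and 0.873 in Ifi35, both past Dixon's critical value for 4 samples. Oasl2 read 0.0135 in wild-type liver 4, against -0.1361 to -0.1206 in the others. Ifi35 read -0.0902 in wild-type liver 4, against 0.0045 to 0.0183 in the others. Of 41 groups of 4 values examined, chance would flag about 1 in 20.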

How the results depend on the processing

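Under all 16 alternatives 0 listed genes were called. The direction held in 538 of 588 values of single genes, and in 19 of the 37 genes it held throughout, among them Ifih1, the 3 IFIT genes, Oasl1, Oas2, Isg15, Rsad2, Gbp2, Igtp and Irgm1. Part of this count was fixed in advance. The robust and ordinary fits keep the differences of the main fit, and single probes repeat them for genes with a single probe. The replicate block gives the same differences as leaving out wild-type liver 1. The sign of 3 genes turned under a scaling: quantile and scale normalization gave Isg20 -0.00257 and -0.00104, Irf1 0.0172 and 0.00298, and Ifi27 0.0040 and 0.00696. Array weights, which gave knockout liver 3 a weight of 3.21 and knockout liver 2 one of 0.438, turned Isg20 (-0.00238), Irf7 (-0.00347), Irf9 (-0.0113), Stat2 (-0.0230), Oasl2 (-0.0172), Iigp1 (-0.0226), Ifi27 (0.000793), Trim25 (-0.0157), Parp14 (-0.00390) and Zbp1 (-0.0599), and moved the median difference of the listed genes to -0.0157 and of the type I-induced genes to -0.00413, with 25 of 37 genes lower. Leaving out each mouse in turn turned a sign in 16 genes, whose values ran from -0.0056 to 0.0703 for Bst2, -0.0211 to 0.0174 for Eif2ak2, -0.0923 to 0.0106 for Gbp3, -0.0262 to 0.0219 for Ifi27, -0.0009 to 0.0401 for Ifi35, -0.05985 to 0.0559 for Iigp1, -0.1146 to 0.1028 for Irf1, -0.00633 to 0.0242 for Irf9, -0.00773 to 0.01497 for Isg20, -0.0843 to 0.0187 for Mx1, -0.02365 to 0.07345 for Oasl2, -0.00636 to 0.0371 for Parp14, -0.01645 to 0.0609 for Trim25, -0.1187 to 0.00805 for Trim30a, -0.0072 to 0.0717 for Usp18 and -0.0336 to 0.05705 for Zbp1. The median of the type I-induced genes ran from -0.00375, without knockout liver 2, to 0.01315. Over the whole table the 1 called row became 0 with scale normalization, the ordinary test or the replicate block, 3 after a filter removed probes of low variation, and 0 to 3 with a mouse left out. Wild types and knockouts share numbers 2 to 4. Mice of the same number gave correlations of deviations of -0.131, -0.207 and -0.150, and mice of unlike numbers gave -0.294 to 0.323. Deviations from the means of such small groups cannot decide whether the numbers mark pairs, and the main fit used no pairs. The replicate block, in which wild-type liver 1 has no partner, called 0 listed genes, left 15 of 37 lower and gave Irf1 0.0032 and Eif2ak2 0.0000333. The causes of these changes were not tested. The depth of the arrays, as signal over background, is not known from log ratios.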

Other observations

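The 10 named genes outside the list whose 7 values were most like the mean of the 29 type I-induced genes were Col9a2, Tnfsf4, Ccpg1, Zfp14, Slc36a2, Btnl9, Lnx2, Msr1, Tmem140 and Ifng. Likeness to that mean, as Pearson's r over 7 arrays that share 1 pool, ran from 0.927 for Ifng to 0.958 for Col9a2. It is a description, picked as the top of all named genes. Of the 10, only Ifng was on any of the interferon or marker lists, and their adjusted p values between the genotypes were all 0.889 or above in the limma fit. Tnfsf4 encodes a costimulatory ligand of T cells, and Msr1 a scavenger receptor of macrophages.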
